A study of Homo sapiens with 36 samples.

Results

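Docosahexaenoic acid (DHA) was added to HepG2 cells that also received protocatechuic acid (PCA), and its effect on the transcriptome after 24 h was measured as DHA+PCA against PCA. The comparison took 6 of the 36 RNA-seq samples of the series, replicates 1 to 3 of each group, chosen by their titles. HepG2 cells are an established line from a human liver tumour, so the results describe a single line. DHA, a long-chain n-3 polyunsaturated fatty acid, was given at 50 µM as a complex with bovine serum albumin in serum-free medium. PCA, a phenolic acid formed from dietary anthocyanins, was given to both groups at 20 µM from a stock in acidified dimethyl sulfoxide. Each sample pooled the RNA of 3 culture replicates. Whether the cells on PCA without DHA also received the albumin and ethanol that carried DHA is not given in the sources used here. Without them this comparison cannot tell DHA and its carrier apart. The groups used beside these were untreated vehicle control (Ctrl), DHA without PCA, propionate (PRO, 70 µM, a short-chain fatty acid) and DHA+PRO at 24 h, and PCA and DHA+PCA at 6 h, with 3 samples each. By the methods of the study, Ctrl cells were given matching amounts of albumin, ethanol and dimethyl sulfoxide.

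Liver cells make cholesterol from acetyl-CoA through the mevalonate pathway and fatty acids through de novo lipogenesis. The transcription factors encoded by SREBF2 and SREBF1 are known to switch on these pathways when sterols run low or insulin rises, and polyunsaturated fatty acids are known to lower the activity of the factor from SREBF1. Polyunsaturated fatty acids also oxidise readily, and the factor NRF2 is known to switch on genes against reactive aldehydes and peroxides, among them aldo-keto reductases and enzymes of glutathione synthesis.

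The deposited counts of reads per gene summed to 5992971 to 7364416 in the PCA samples and to 5617341 to 6764157 in the DHA+PCA samples, so the groups had like depths. All 9 hepatocyte markers were present in these 6 samples, albumin (ALB) at 9630 to 13200 RPKM (reads scaled by gene length and library size), and 0 of them were called. The leukocyte marker PTPRC and the stellate cell marker LRAT were at 0, and CD68, which macrophages and some other cells express, was at 22.6 to 30.1 RPKM. In bulk RNA fewer cells with a transcript and less of it per cell cannot be told apart. The later of 2 series of library numbers in the titles holds every replicate 3 of 24 h, so that the series and the replicate number cannot be told apart.

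DHA on top of PCA lowered the mRNA of 27 of 59 tested genes on 6 lipid lists. These cover cholesterol and fatty acid synthesis, the SREBF factors with their processing, and sterol uptake and traffic. DHA raised the mRNA of 5 of 11 aldo-keto reductases and of 8 of 22 genes on a list of the NRF2 response, 4 of which are on both lists. Of 11893 genes tested, 79 were called (0.664%), of which 20 rose (0.168%) and 59 fell (0.496%). A gene was called at a Benjamini-Hochberg adjusted p of at most 0.05 from the quasi-likelihood test of edgeR and an average level above 0 on the log2 CPM scale (CPM being counts scaled by library size), with the replicate number as a factor. The risen genes had a median log2 fold change of 0.49 and the fallen genes of −0.555, against a median of 0.00325 over all genes tested. Changes were mostly moderate, since 2 genes rose and 4 fell by more than 1 on the log2 scale. In all 79 genes the 3 same-numbered differences had the sign of the fold change, which 39.0% of all tested genes had in either sign. In 77 of the 79 the DHA+PCA and PCA samples did not overlap, which held for 14.6% of all tested genes. Both traits follow in part from the calls, which were made on the same samples. An unadjusted p under 0.05 was reached by 1294 genes, 617 above 0 and 677 below.

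**Figure D1:**
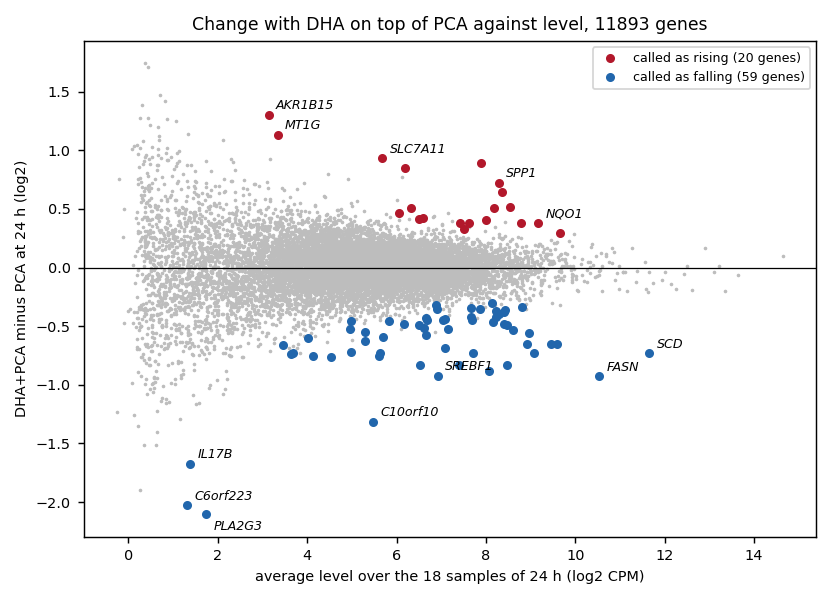
Log2 fold change of DHA+PCA against PCA at 24 h (y axis) against the average level in log2 CPM (x axis) for the 11893 genes tested, with the 20 genes called as rising in red and the 59 called as falling in blue. The grey cloud is centred on 0, and SCD and FASN stand out among the most abundant mRNAs.

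The replicate number mattered to this count. Without it 33 genes were called, 5 rising and 28 falling, all among the 79. Leaving out 1 of the 6 samples gave 40 genes without PCA replicate 1, 48 and 47 without replicates 2 and 3 of PCA, and 68, 44 and 45 without replicates 1, 2 and 3 of DHA+PCA. With replicates 1 and 2 alone, which form the earlier library series, 22 genes were called, all among the 79. In 30 of the 79 genes the call held in all 6 of these fits, and no gene changed its sign. Base composition moved with the result, as the fallen genes had a median GC content of 55.9% and the risen genes of 44.2%, against 49.9% over the tested genes. The median log2 fold change ran from 0.0871 in the lowest of 3 GC classes of about equal size through 0.00704 to −0.098 in the highest, in the same order in each of the 3 same-numbered differences. With a GC-content offset per library, an alternative chosen after seeing the data, 154 genes were called and 73 of the 79 were among them. P2RY8, SV2A, HID1, STAP2, EBP and TXN were not.

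Most mRNAs for the enzymes that build mevalonate and turn it into farnesyl diphosphate fell. Of the 9 genes of this list 6 fell, 0 rose, and the median log2 fold change was −0.467. HMGCS1, the cytosolic synthase near the start of the pathway, was at 814, 810.4 and 843 CPM in PCA replicates 1 to 3 and at 535, 573 and 467 CPM in DHA+PCA. The groups stood well apart, and it fell by 0.65 on the log2 scale (SE 0.109, edgeR adjusted p = 0.00161). MVD, which decarboxylates the diphosphate of mevalonate, had the largest fall of the list, from 383, 332 and 372 CPM to 217, 175 and 199 CPM. Its log2 fold change was −0.88 (SE 0.141, edgeR adjusted p = 0.000954). FDPS, which makes farnesyl diphosphate, ACAT2, the thiolase at the start, and MVK, the mevalonate kinase, fell by 0.47, 0.38 and 0.57. IDI1 had −0.43 and missed the threshold (edgeR adjusted p = 0.0637). The call of MVK was lost without PCA replicate 1 or DHA+PCA replicate 2 (adjusted p up to 0.0829), and that of ACAT2 without DHA+PCA replicate 3 (0.071).

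The steps from squalene to cholesterol had 9 falls and 0 rises among 13 genes, with a median of −0.446. FDFT1, the squalene synthase, was at 930.1, 959 and 1015 CPM in PCA and at 606, 617 and 624 CPM in DHA+PCA. The spread inside each group was small beside this gap, and the log2 fold change was −0.65 (SE 0.059, edgeR adjusted p = 3.87e-07). LSS closes squalene epoxide to the first sterol, lanosterol, and went from 107, 124 and 126 CPM to 61, 75 and 64.9 CPM, a log2 fold change of −0.83 (SE 0.11, edgeR adjusted p = 7.56e-05). DHCR7, which makes cholesterol from its last precursor, had 575, 605 and 634 CPM against 390.2, 366 and 393 CPM, a log2 fold change of −0.65 (SE 0.0803). MSMO1, NSDHL, CYP51A1 and TM7SF2, which act on lanosterol or the sterols made from it, fell by 0.48, 0.48, 0.45 and 0.53. SQLE, the epoxidase that is the second control point of the pathway, fell by 0.33 and EBP by 0.32. Without 1 sample SQLE was lost in 5 of 6 fits (all but DHA+PCA replicate 2, adjusted p up to 0.19), EBP in all 6 (up to 0.185) and TM7SF2 without PCA replicates 1 or 3 or DHA+PCA replicate 2 (up to 0.0873). Without the replicate number in the model SQLE, EBP, NSDHL, TM7SF2 and ACAT2 were not called.

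**Figure D2:**
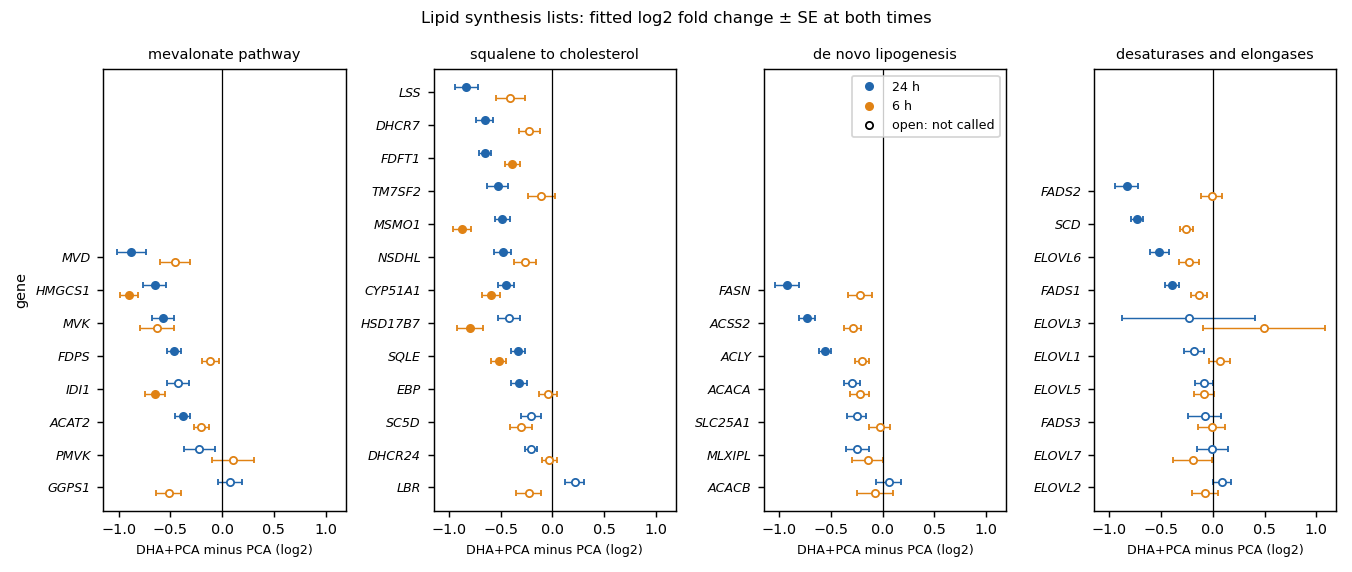
Fitted log2 fold change of DHA+PCA against PCA with its SE (x axis) for tested genes of 4 lipid synthesis lists (y axis), at 24 h in blue and at 6 h in orange, filled where called. Most genes of both sterol lists lie left of 0 at both times, whereas FADS2 lies near 0 at 6 h and FASN, SCD and FADS2 are called at 24 h alone.

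Some mRNAs of fatty acid synthesis fell too. In the list of de novo lipogenesis 3 of 7 tested genes fell, 0 rose, and the median was −0.297. FASN, the synthase that makes palmitate, was at 2219, 1792 and 1964 CPM in PCA and at 1226, 912 and 1012 CPM in DHA+PCA. Its log2 fold change of −0.92 (SE 0.117, edgeR adjusted p = 3.83e-05) came with no overlap between the groups. ACLY and ACSS2 supply its acetyl-CoA from citrate and acetate. ACLY went from 587, 575 and 615 CPM to 408, 396 and 405 CPM, and ACSS2 from 258, 261 and 261 CPM to 161, 142 and 167 CPM. Their log2 fold changes were −0.55 (SE 0.0607) and −0.73 (SE 0.074). ACACA, which makes malonyl-CoA, had −0.30 and missed the threshold (edgeR adjusted p = 0.0881).

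Among 10 desaturases and elongases 4 fell and 0 rose, with a median of −0.209. SCD, which makes oleate from stearate, had the smallest adjusted p of all genes, 1.9e-08 in edgeR. Its level was 4011, 4288 and 3926 CPM in PCA and 2536, 2584 and 2253 CPM in DHA+PCA, a log2 fold change of −0.73 (SE 0.0553). FADS2 and FADS1 desaturate polyunsaturated fatty acids, on the way that leads to DHA itself. FADS2 went from 221, 222 and 219.9 CPM to 141, 115 and 116 CPM (log2 fold change −0.83, SE 0.108). FADS1 had 324, 338 and 364 CPM against 272, 254 and 254 CPM (−0.39, SE 0.0693). These neighbours overlap on chromosome 11 of hg19 (FADS1 from 61567097 to 61584529, FADS2 from 61583675 to 61634826), and reads from the overlap cannot be told apart in libraries that keep no strand. ELOVL6, which lengthens palmitate, fell by 0.52. Both ELOVL6 and FADS1 lost the call without DHA+PCA replicate 3 (edgeR adjusted p of 0.071 and 0.0633).

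SREBF1, which encodes one of the regulators named above, was at 198, 139 and 160.4 CPM in PCA and at 109, 68.5 and 85.8 CPM in DHA+PCA. The groups did not overlap, and it fell by 0.92 on the log2 scale (SE 0.135, edgeR adjusted p = 0.000284). SREBF2 had a log2 fold change of −0.32 (SE 0.0826, edgeR adjusted p = 0.0874). The difference between both genes was not tested. No other gene of the 8 tested for these factors and their processing was called, and with the GC-content offset SREBF2 was called as well (edgeR adjusted p = 0.0309). Of 12 genes of sterol uptake and traffic 4 fell and 0 rose. Among them NPC1L1, which takes up sterols at the cell surface, and TMEM97 fell by 0.43 and 0.37, and NPC1L1 was lost without DHA+PCA replicate 2 (edgeR adjusted p = 0.0531).

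Over these 6 lists together, 27 of the 59 tested genes fell and 0 rose, against 0.496% falling over all tested genes, and 51 of the 59 had a fold change below 0. The median was −0.322. These lists were chosen with earlier results of these data known, so the shares are a description and not a test. Without the replicate number 22 were called, and with the GC-content offset 32. Of the 27 fallen genes 26 were called with that offset, EBP being the exception (edgeR adjusted p = 0.0585).

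Promoter windows from RefSeq on GRCh38.p14, from 250 bases before to 50 after a start, were held for 20 of the 27 fallen genes (25 windows) and for 14 of the 20 risen genes (16 windows). A sterol regulatory element was searched as TCACNCCAC on both strands. It was in 0 of the 25 windows of the fallen genes and in 1.11% of the 13424 windows of tested genes. These letters thus did not mark the windows held, which leave out ACAT2, FASN, FDFT1 and SQLE among others. The CCAAT box, the sequence bound by the factor NF-Y and known to stand near sterol-responsive sites, was in 17 of the 25 windows (68%). It was there at least 2 times in 12 windows (48%). In the windows of all tested genes these shares were 34.9% and 12.2%, and in those of the risen genes 62.5% and 0%. An antioxidant response element (TGACNNNGC) was in 3 of the 16 windows of risen genes (18.8%, against 14.7% of tested windows) and a metal response element (TGCNCNC) in 8 of 16 (50%, against 62.7%). No window was held for AKR1B10, AKR1B15, MT1G, PRDX1 and SLC7A11 among the risen genes. These shares therefore say nothing on MT1G, the only called metallothionein, or on the other genes without a window. A match is a description of the letters and not a binding site, and the 4 motifs can overlap each other. Shown first are the 4 fallen genes with the largest fall whose window holds a CCAAT box, a choice made after the matches were seen, with the box in capitals on either strand (CCAAT or ATTGG).
MVD: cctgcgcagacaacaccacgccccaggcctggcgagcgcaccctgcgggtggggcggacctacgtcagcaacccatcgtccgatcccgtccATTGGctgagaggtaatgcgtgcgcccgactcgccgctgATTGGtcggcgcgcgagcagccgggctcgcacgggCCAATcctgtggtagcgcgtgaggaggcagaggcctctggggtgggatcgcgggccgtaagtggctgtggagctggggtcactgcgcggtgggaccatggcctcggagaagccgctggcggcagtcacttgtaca
FADS2: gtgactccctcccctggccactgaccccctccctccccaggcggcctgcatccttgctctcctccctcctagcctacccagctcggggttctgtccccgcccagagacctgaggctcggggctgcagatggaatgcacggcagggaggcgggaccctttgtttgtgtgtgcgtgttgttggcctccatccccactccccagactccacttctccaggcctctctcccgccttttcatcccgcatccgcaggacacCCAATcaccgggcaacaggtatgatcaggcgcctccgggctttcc
LSS: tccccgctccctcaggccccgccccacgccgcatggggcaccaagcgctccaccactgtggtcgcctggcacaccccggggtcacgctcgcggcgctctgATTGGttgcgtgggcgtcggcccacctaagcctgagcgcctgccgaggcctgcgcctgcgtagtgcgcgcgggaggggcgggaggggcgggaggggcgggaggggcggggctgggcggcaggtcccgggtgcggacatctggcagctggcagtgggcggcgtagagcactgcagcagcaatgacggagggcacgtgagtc
ACSS2: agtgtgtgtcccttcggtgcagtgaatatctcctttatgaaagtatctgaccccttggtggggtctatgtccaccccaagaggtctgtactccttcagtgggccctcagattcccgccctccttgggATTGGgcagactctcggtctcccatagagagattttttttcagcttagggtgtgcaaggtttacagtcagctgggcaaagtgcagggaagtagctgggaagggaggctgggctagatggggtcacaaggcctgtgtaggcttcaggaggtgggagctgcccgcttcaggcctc

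MVD holds 3 boxes within the window and the other genes 1 each, and in FADS2 the box lies just after the start. The windows lie at chr16:88663042-88663341 (MVD, minus strand), chr11:61816154-61816453 (FADS2, plus strand), chr21:46228725-46229024 (LSS, minus strand) and chr20:34874739-34875038 (ACSS2, plus strand). For contrast, the same search in the 2 risen genes with the largest rise that have a window found 1 box in AKR1C2 (chr10:5003808-5004107, minus strand) and 0 in SPP1 (chr4:87975464-87975763, plus strand).
AKR1C2: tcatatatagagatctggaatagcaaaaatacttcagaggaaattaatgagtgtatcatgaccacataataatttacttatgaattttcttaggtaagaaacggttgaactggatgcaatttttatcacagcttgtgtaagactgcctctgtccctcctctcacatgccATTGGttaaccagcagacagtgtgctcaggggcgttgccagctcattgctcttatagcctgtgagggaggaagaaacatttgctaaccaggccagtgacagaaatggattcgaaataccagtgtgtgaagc
SPP1: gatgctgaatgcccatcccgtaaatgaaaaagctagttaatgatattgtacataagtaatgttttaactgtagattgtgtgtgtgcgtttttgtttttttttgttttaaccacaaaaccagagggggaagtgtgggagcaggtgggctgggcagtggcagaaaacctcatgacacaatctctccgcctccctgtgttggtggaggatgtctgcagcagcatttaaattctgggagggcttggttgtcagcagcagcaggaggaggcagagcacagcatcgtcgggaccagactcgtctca

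The largest falls of single genes lay outside these lists, and those of PLA2G3, C6orf223 and IL17B came at a low level. PLA2G3, a secreted phospholipase A2 on chromosome 22 of hg19 (31530793 to 31536593), was at 5.65, 3.46 and 6.34 CPM in PCA and at 1.06, 1.11 and 1.35 CPM in DHA+PCA. Its log2 fold change was −2.10 (SE 0.344, edgeR adjusted p = 0.00122), and it was called in each fit with a sample left out. C6orf223, an open reading frame, had 1.66, 5.27 and 4.27 CPM against 1.06, 0.796 and 0.899 CPM. IL17B, a cytokine of the interleukin 17 family, had 3.99, 2.56 and 5.37 CPM against 1.23, 1.27 and 1.20 CPM. Their fitted values were −2.02 (SE 0.445) and −1.67 (SE 0.38), and replicate 1 of C6orf223 differed by −0.56 only. Both lost the call in 5 of 6 fits with a sample left out, C6orf223 in all but that without PCA replicate 1 (edgeR adjusted p up to 0.247) and IL17B in all but that without PCA replicate 2 (up to 0.27). C10orf10, known as decidual protein induced by progesterone, went from 40.1, 91.9 and 55.0 CPM to 15.0, 33.8 and 26.1 CPM. Replicate 2 was the highest in both groups, and the log2 fold change was −1.32 (SE 0.186, edgeR adjusted p = 0.000196).

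Among the 12 largest falls were also IGFBP1, YPEL3 and FST. IGFBP1, a liver protein that binds insulin-like growth factors, was at 295, 632 and 342 CPM in PCA and at 165, 332 and 211 CPM in DHA+PCA. The groups overlapped, since replicate 2 was high on both sides, and each same-numbered difference lay between −0.93 and −0.70 (log2 fold change −0.83, SE 0.16, edgeR adjusted p = 0.00714). FST, follistatin, which binds activin, went from 38.6, 72.8 and 50.6 CPM to 25.4, 34.6 and 34.9 CPM (−0.75, SE 0.112). CTGF, a matrix protein, went from 391, 550 and 416 CPM to 278, 351 and 304 CPM (−0.53, SE 0.0668). Without the replicate number IGFBP1, C10orf10, FST and CTGF were not called (edgeR adjusted p of 0.574, 0.251, 0.32 and 0.154). IGFBP1 also lost the call without PCA replicate 2 or DHA+PCA replicate 3 (up to 0.144). YPEL3, a small gene of the yippee family, fell by 0.76 and was lost in 5 of 6 fits with a sample left out, all but that without DHA+PCA replicate 1 (up to 0.421). PNPLA3 and LPIN1, which act on triglyceride and phosphatidate, were the 2 falls among 16 genes of lipid droplets, at −0.72 and −0.59, and LPIN1 was lost without PCA replicate 3 or DHA+PCA replicates 1 or 3 (up to 0.0649).

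**Figure D3:**
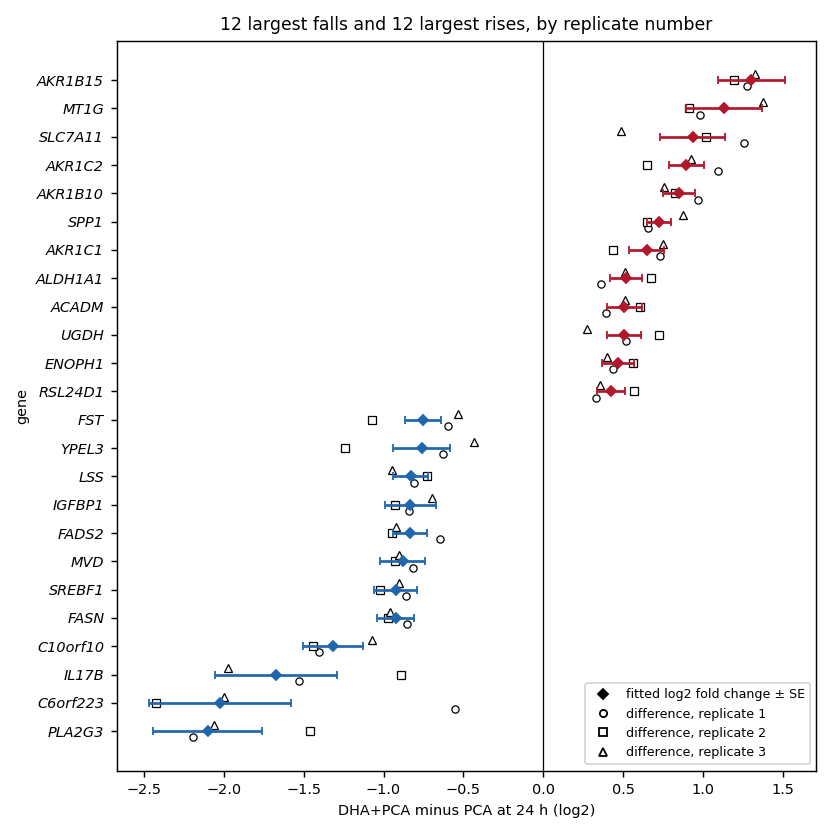
Difference of DHA+PCA and PCA at 24 h in log2 for each replicate number (open symbols, x axis) beside the fitted log2 fold change with its SE (filled) for the 12 largest falls and 12 largest rises (y axis). All symbols of a gene lie on the same side of 0, with replicate 1 of C6orf223 nearest to it among the 4 largest falls.

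The rises were led by aldo-keto reductases, which reduce aldehydes and ketones with NADPH. Of the 11 genes of this list 5 rose and 0 fell, with a median of 0.408, and 4 had a fold change below 0. A model lacking the replicate number called 3. AKR1B10 on chromosome 7 was at 44.4, 51.3 and 58.3 CPM in PCA and at 86.9, 90.9 and 98.6 CPM in DHA+PCA. Its log2 fold change was 0.85 (SE 0.102, edgeR adjusted p = 2.15e-05). AKR1B15, its neighbour, went from 4.32, 4.96 and 4.41 CPM to 10.8, 11.6 and 11.4 CPM, the largest rise of all called genes (1.30, SE 0.208, edgeR adjusted p = 0.000917). AKR1C2 and AKR1C1, which inactivate steroid hormones, stand side by side on chromosome 10. AKR1C2 had 121, 154 and 197 CPM against 259, 241 and 375 CPM (0.89, SE 0.11). AKR1C1 had 205, 245 and 294 CPM against 341, 331 and 494 CPM (0.65, SE 0.11). In both, replicate 3 was highest on each side and the groups did not overlap. AKR1C3 rose by 0.41, was lost without PCA replicate 1 or DHA+PCA replicate 3 (edgeR adjusted p up to 0.059), and AKR1C1 was not called without the replicate number (0.38). These are near-identical paralogs within each cluster, and how the counting shared reads among them is not given in the sources used here, so the rise of a single member is uncertain.

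In the list of the NRF2 response 8 of 22 genes rose and 0 fell, with a median of 0.227, and 4 of the 8 are the aldo-keto reductases AKR1B10, AKR1C1, AKR1C2 and AKR1C3. The calls became 3 of 22 without the replicate number and 12 with the GC-content offset. The others act on glutathione, thioredoxin and quinones. NQO1, a quinone reductase, was at 518, 447 and 502 CPM in PCA and at 623, 641 and 647 CPM in DHA+PCA (0.38, SE 0.0691, edgeR adjusted p = 0.00365). GCLC, the catalytic subunit that starts glutathione synthesis, had 66.5, 78.1 and 75.1 CPM against 95.2, 103 and 94.6 CPM (0.41, SE 0.0885). SLC7A11 brings in the cystine for it, and went from 32.9, 37.5 and 33.5 CPM to 78.8, 76.1 and 46.9 CPM. DHA+PCA replicate 3 lay below its fellows, and the log2 fold change was 0.93 (SE 0.203, edgeR adjusted p = 0.023). TXNRD1, thioredoxin reductase, rose by 0.33. Outside the list TXN, PRDX1 and GPX2, which are its substrate and 2 peroxidases, rose by 0.38, 0.29 and 0.38, and TXN was not called with the GC-content offset. TXN and GPX2 were lost in all 6 fits with a sample left out (edgeR adjusted p up to 0.399 and 0.185) and PRDX1 in 5 (all but DHA+PCA replicate 1, up to 0.19). SLC7A11 was called only without DHA+PCA replicate 3 among the fits with a sample left out (adjusted p up to 0.258 otherwise). GCLC was lost in 5 fits (all but DHA+PCA replicate 3, up to 0.195), TXNRD1 in 4 (all 3 PCA replicates and DHA+PCA replicate 2, up to 0.406), and NQO1 without PCA or DHA+PCA replicate 2 (up to 0.0637).

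Metallothioneins bind zinc and copper. MT1G, on chromosome 16, was at 8.31, 6.17 and 6.75 CPM in PCA and at 16.6, 11.8 and 17.8 CPM in DHA+PCA, and was the only called gene of 10 on this list (1.13, SE 0.237, edgeR adjusted p = 0.0175). MT1F and MT1E had 0.92 and 0.80 and missed the threshold (edgeR adjusted p of 0.0658 and 0.0847). With the GC-content offset 3 of the 10 were called, and without the replicate number 0. These genes too have close copies. The call of MT1G was lost without any PCA replicate or without DHA+PCA replicate 3 (up to 0.227). SPP1, which encodes the secreted phosphoprotein osteopontin, had the smallest adjusted p of the risen genes. It was at 209.8, 252 and 227 CPM in PCA and at 330.3, 396 and 416 CPM in DHA+PCA (0.72, SE 0.074, edgeR adjusted p = 2.13e-06), and it was called in every fit with a sample left out. ALDH1A1, which makes retinoic acid from retinal, rose by 0.52, UGDH, which makes UDP-glucuronate, by 0.51, ENOPH1 of methionine salvage by 0.47 and RSL24D1 of ribosome assembly by 0.42. Each of these last 4 was lost in 4 or 5 of the 6 fits with a sample left out, PCA replicates 1 and 2 and DHA+PCA replicate 2 among them for all 4 (adjusted p up to 0.251). The 5 risen genes that were called without the replicate number were AKR1B10, AKR1B15, AKR1C2, SPP1 and NQO1.

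**Figure D4:**
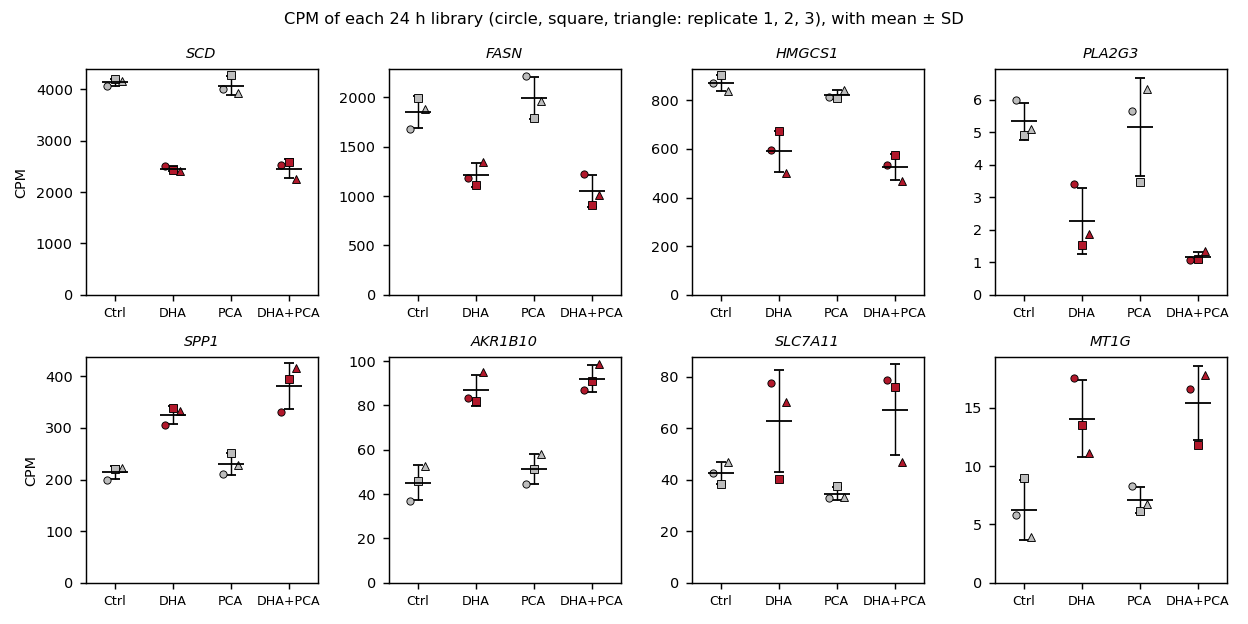
Level in CPM (y axis, from 0) of 8 genes in each library of Ctrl, DHA, PCA and DHA+PCA at 24 h (x axis), with groups given DHA in red and the mean with SD over 3 samples in black. SCD, FASN, HMGCS1 and PLA2G3 are lower and SPP1, AKR1B10 and MT1G higher with DHA on either side, and for SLC7A11 the DHA libraries without PCA overlap those of Ctrl.

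Other pathways of the hepatocyte showed few or no calls. Of 20 genes of fatty acid oxidation and PPAR alpha, the receptor that fatty acids are known to activate, 1 rose and 0 fell. This was ACADM, the medium-chain acyl-CoA dehydrogenase, with 67.8, 74.3 and 55.8 CPM against 88.9, 113 and 79.5 CPM (0.51, SE 0.109, edgeR adjusted p = 0.0217). It was lost in 5 of 6 fits with a sample left out, all but DHA+PCA replicate 1 (up to 0.304). FABP1, the fatty acid carrier of liver, had −0.32 (edgeR adjusted p = 0.128). In 7 further lists 0 genes were called. These held 7 genes of sterol efflux and its receptor LXR, 14 of lipoprotein assembly, 12 of bile acid synthesis, 19 of the ATF4 and endoplasmic reticulum stress response, 5 of the aryl hydrocarbon receptor, 22 of DNA replication and mitosis, and 20 plasma proteins. Their medians ran from −0.18 to 0.107. With the GC-content offset 3 of the 19 genes of the ATF4 list and 1 of the 20 plasma proteins were called, and 4 of the 20 of fatty acid oxidation. LPCAT3 and MYLIP had −0.27 and −0.67 (edgeR adjusted p of 0.158 and 0.267), MTTP and APOH 0.20 and 0.17, ABCC2 and SLC27A5 0.24 and −0.51, PSAT1 and MTHFD2 0.39 and 0.46, ALDH3A1 and CYP1A1 −0.50 and −0.18, PCNA and CDK1 0.24 and 0.30, and HP and SERPINC1 0.41 and 0.29. The adjusted p of these ran from 0.0658 for PSAT1 to 0.904 for CYP1A1. The median SE over the tested genes was 0.125.

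The effect of DHA on top of PCA was then set beside that of DHA alone, which uses other samples (3 of DHA and 3 of Ctrl). DHA alone called 77 genes (0.647%), 19 rising and 58 falling. Of these 48 were shared with DHA on top of PCA, which is 60.8% of the 79 and 62.3% of the 77, and all 48 had the same sign (36 falling and 12 rising). The 79 genes had the same sign with DHA alone in 78 cases, against 61.1% of all tested genes. STAP2, an adaptor protein, was the exception with 0.03 alone and −0.46 on top of PCA. The test of the difference between both effects called 0 genes in edgeR's quasi-likelihood test (401 with an unadjusted p under 0.05, smallest adjusted p = 0.999), and 0 in each alternative including DESeq2. For SCD the difference was 0.02 (SE 0.0777), for FASN −0.31 (SE 0.164), for SPP1 0.12 (SE 0.104) and for AKR1B10 −0.10 (SE 0.144). For PLA2G3 it was −0.83 with an SE of 0.471, too wide to tell equal effects from a larger one with PCA. PCA itself against Ctrl called 0 of 11893 genes in edgeR (777 with an unadjusted p under 0.05, smallest adjusted p = 0.57).

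**Figure D5:**
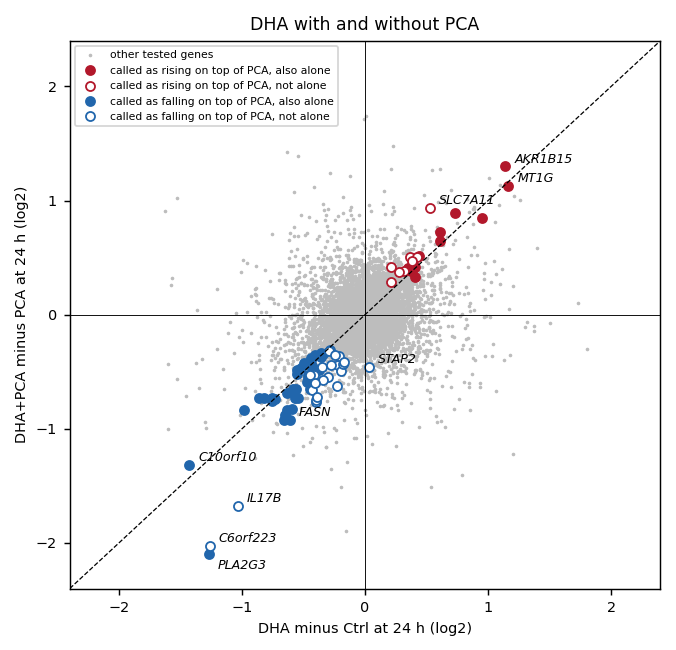
Log2 fold change of DHA+PCA against PCA (y axis) and of DHA against Ctrl (x axis) at 24 h for each tested gene, with the 79 genes called on top of PCA in colour, filled where also called for DHA alone, and the line of equal effects dashed. Of the coloured points 78 lie in the same-sign quadrants, and STAP2 lies just right of 0.

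With PRO in place of PCA, DHA called 99 genes (0.832%), 26 rising and 73 falling, again in other samples. Of these 34 were shared with DHA on top of PCA (43% of the 79, 34.3% of the 99), and the same 34 genes were also called for DHA alone. On top of PRO 72 of the 79 had the same sign as on top of PCA, 56 of the 59 falls and 16 of the 20 rises, against 44.2% of all tested genes. They included SCD, ACSS2, ACLY, FADS1, ELOVL6, HMGCS1, FDFT1, LSS and SQLE among the falls, and SPP1, MT1G, NQO1, GPX2, AKR1B10, AKR1B15 and AKR1C1 to AKR1C3 among the rises. The 99 genes were chosen by the contrast with PRO, in a fit that shared its dispersion and replicate factor with all 24 h samples. On them the median change in the called direction was 0.251 on top of PCA and 0.324 for DHA alone, and 33 of the 99 were larger on top of PCA. The same medians by replicate number were 0.253, 0.203 and 0.309 on top of PCA and 0.341, 0.27 and 0.36 alone. For DHA alone the lowest and highest GC classes had medians of 0.0236 and 0.004, whereas PRO and PCA ran in opposite orders (below). The choice may thus not treat both sides alike, which was not tested, and these medians do not rank the 2 effects. The difference of the DHA effects on top of PCA and of PRO called 0 genes in edgeR (1834 with an unadjusted p under 0.05, smallest adjusted p = 0.177). DESeq2's Wald test called 28, and without replicate 2 of PRO or replicate 3 of DHA+PRO edgeR called 1443 and 58. ACADM, named after its value was seen, had 0.51 on top of PCA and −0.22 on top of PRO, a difference of 0.73 (SE 0.152). The lowest and highest GC classes had medians of −0.0984 and 0.135 with PRO, opposite in order to those with PCA, and the GC-content offset left 1005 genes at an unadjusted p under 0.05. Replicate 2 of DHA+PRO was far deeper than all other libraries (42326734 counts).

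At 6 h the same contrast was measured in other samples, and falls in mRNAs of cholesterol synthesis were already there. Of 11872 genes tested 12 were called (0.101%), all of them falling, and 439 had an unadjusted p under 0.05. They included HMGCS1, MSMO1, SQLE, CYP51A1, IDI1, HSD17B7, SREBF1, FDFT1, STARD4 and LIPG, and all of the 12 but LIPG, an endothelial lipase gene, belong to the 6 lipid lists. HMGCS1 was at 344, 368 and 359 CPM in PCA and at 194, 185 and 196 CPM in DHA+PCA at 6 h, a log2 fold change of −0.90 (SE 0.0858, edgeR adjusted p = 5.17e-06). MSMO1 had 269, 212 and 224 CPM against 149, 117 and 119.6 CPM (−0.87, SE 0.09). The samples with DHA lay below those without in both. Of the 12 genes 8 were also called at 24 h, and IDI1, HSD17B7, STARD4 and LIPG were not. The genes that rose at 24 h had 0 calls at 6 h, AKR1C1 with 0.36 and SPP1 with 0.17. Without the replicate number 3 genes were called at 6 h, and 7 to 9 with a sample left out, 7 without replicate 2 of DHA+PCA.

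The change of the DHA effect from 6 h to 24 h was tested over all 36 samples and called 5 of 12046 genes (0.0415%), with 1088 at an unadjusted p under 0.05. FADS2 was at 110, 77.1 and 79.7 CPM in PCA and at 105, 74.9 and 84.4 CPM in DHA+PCA at 6 h, so the groups overlapped then, and its effect changed by −0.82 (SE 0.154, edgeR adjusted p = 0.0183). C10orf10 had 36.7, 18.03 and 31.8 CPM against 37.1, 27.8 and 30.0 CPM at 6 h and changed by −1.48 (SE 0.248, edgeR adjusted p = 0.00791). FST had 51.1, 40.2 and 46.7 CPM against 58.2, 39.1 and 45.8 CPM and changed by −0.80 (SE 0.151). SCD had a log2 fold change of −0.26 at 6 h and −0.73 at 24 h, a change of −0.47 (SE 0.0806). SPP1 had 0.17 at 6 h and 0.72 at 24 h, a change of 0.55 (SE 0.103). With the GC-content offset 5 genes were called, all falling, among them 4 of these 5, and SPP1 was lost with a change of 0.397 (SE 0.102, edgeR adjusted p = 0.303). In the main fit all 5 had the larger effect at 24 h. The lowest and highest GC classes had medians of −0.0591 and 0.0705 at 6 h, against 0.0871 and −0.098 at 24 h. How far this reversed order entered the change with time was not tested. Without the replicate number 0 genes passed, and leaving out 1 of the 12 samples gave 0 to 7 genes. The count was 0 without replicate 3 of DHA+PCA at 24 h, 1 without PCA replicate 2 at 24 h or PCA replicate 3 at 6 h, 2 or 3 in 6 further fits, and 7, 4 and 6 without DHA+PCA replicate 3 at 6 h, PCA replicate 3 at 24 h and DHA+PCA replicate 1 at 24 h.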

How the data were processed

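The deposited table of the 36 HepG2 samples was used. The authors built unstranded TruSeq libraries, aligned reads to hg19 with STAR and counted them with iRNA-seq, and deposited raw counts per RefSeq gene for 18932 genes without normalization. The deposited table also gives the counted length of each gene in bases (an other unit, needed for RPKM alone), which is 1 in 8 genes, and starts that count from 0, to which 1 was added. The labels gave groups and replicate numbers, and every sample of 24 h entered the fit.

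Counts of the 18 samples of 24 h were fitted in edgeR 4.0.16 (R 4.3.3) after filterByExpr and TMM scaling, by the quasi-likelihood test without robust estimation, with an additive factor for the replicate number. P-values were adjusted (Benjamini-Hochberg) across every tested gene. The 18 samples of 6 h, and all 36 for the change with time, were fitted likewise. With 3 samples a group an exact permutation test that ignores the replicate number reaches 0.1 at best and was not used. Keeping same-numbered pairs together would raise this floor. The SE was the absolute log2 fold change over the root of F. CPM values are on TMM-scaled library sizes. The methods of the study describe 3 independent cell cultures, whereas the titles give replicate numbers alone. The column headers carry the same run of numbers in same-numbered samples of each group. That these shared an experiment was inferred and is not stated, and the residuals of PCA and DHA+PCA samples with the same number correlated at 0.348, 0.37 and 0.26 over 10678 genes, which are not independent. The biological coefficient of variation was 0.105 without the replicate factor and 0.0825 with it. The 15 pairs of the 6 libraries differed by a chi-square per degree of freedom of at least 3.95, so none was a duplicate.

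Depth was 4659744 to 42326734 counts per sample. Without molecular identifiers counts are reads and not molecules. GC content was known for 17756 genes. The scripts were tested on simulated counts. Alternatives were no replicate factor, DESeq2 size factors, the DESeq2 1.42.0 Wald test, upper quartile scaling, no filter, a higher level limit, fewer samples, samples left out and, added after seeing the data, a GC-content offset (spline with 5 degrees of freedom per library). Plots used Python 3.11.15 and matplotlib 3.10.9.

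Named are the 12 largest rises and 12 largest falls with 3 equal signs, up to 6 called members of each list (or the 2 with the smallest p where fewer than 2 were called), at most 5 or else the 3 with the smallest p in the other comparisons, and the promoters described. Genes named beyond this rule (CTGF, PRDX1, TXN, GPX2, STAP2, P2RY8, SV2A, HID1, IDI1, ACACA, MT1E, the genes of 6 h past the first 3 and called members past 6 a list) were chosen after their values were seen. The values of some genes that entered the fits and counts are not reported here. The comparison and the 18 gene lists were chosen with earlier results of these data known.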

Additional observations from a re-analysis of the deposited data

Results flagged for a closer look

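The effect of DHA on top of PCA differed between 6 h and 24 h for 5 genes by the test of the difference itself, edgeR's quasi-likelihood test over 36 samples with a replicate factor for each time. The change of the log2 fold change from 6 h to 24 h was −1.48 for C10orf10, −0.473 for SCD, 0.551 for SPP1, −0.822 for FADS2 and −0.796 for FST, with adjusted p of 0.00791 for the first pair and 0.0183 for the others. SCD encodes the desaturase that makes oleate, FADS2 the desaturase at the start of polyunsaturated fatty acid synthesis, FST follistatin and SPP1 osteopontin. In C10orf10, SCD, FADS2 and FST the fall, and in SPP1 the rise, was called at 24 h in 3 of 3 same-numbered differences, and none of these genes was called at 6 h. These 5 changes were not called without the replicate number, and that of SPP1 was 0.397 and not called with the GC-content offset (adjusted p = 0.303).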

How the results depend on the processing

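The 79 genes of DHA on top of PCA at 24 h became 33 without the replicate block, 150 without a filter on low counts, 154 with the GC-content offset, 723 with only the 6 samples and 174 with 12 samples. Without replicate 3 the count was 22, and it ran from 22 to 68 over all fits with samples left out, including 67 without the deep library of DHA+PRO. DESeq2's Wald test gave 112, and DESeq2 size factors, upper quartile scaling and a higher level limit gave 78, 74 and 76. Of the 79 genes 25 were called in all 11 alternatives run for single genes, and none was reversed. The cause of these shifts was not tested. The pairing of same-numbered samples was inferred from the column headers and their correlated residuals, and the replicate block turned no sign of a called gene.

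The difference from DHA alone stayed at 0 in all alternatives run. The difference from DHA on top of PRO, 0 in the report, was 28 with DESeq2's Wald test and 214 without a filter, and ran from 0 to 1443 with a sample left out. At 6 h the 12 genes became 3 without the replicate block, 20 without a filter, 41 with only the 6 samples, and 7 to 9 with a sample left out. The 5 genes that changed with time became 0 without the replicate block, 12 with DESeq2's Wald test, 12 without a filter, and 0 to 7 with a sample left out. With the GC-content offset they were again 5, 4 of them the same, and SPP1 was lost. The median SE was 0.125 for DHA on top of PCA at 24 h, 0.132 for it at 6 h and 0.186 for the change with time. For the differences from DHA alone and from DHA on top of PRO it was 0.176 and 0.173.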
